A study of Homo sapiens with 20 samples.

Results

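The regions described here are 12330 of the 54563 consensus peaks of FRA1 Cut&Run in A375 and 1205Lu cells, both human melanoma cell lines. They were selected on the counts themselves. A peak belongs to them if it is under 2000 bp wide, if its mean count over the 3 A375 FRA1 samples is under 4 times the A375 IgG count plus 1, and if the same holds for the 3 1205Lu FRA1 samples and the 1205Lu IgG sample. They make up 22.6% of all peaks and 23.1% of the 53364 peaks under 2000 bp, and they are called near-background peaks below. The other 41034 peaks under 2000 bp passed the limit in A375 alone (34124), in 1205Lu alone (2531) or in both lines (4379), and 1199 peaks were 2000 bp or wider. The Cut&Run groups were untreated as far as the labels say, with 3 samples given an antibody against FRA1 and 1 sample given IgG in each line. The RNA-seq groups, which the selection did not use, were A375 and 1205Lu cells with non-targeting siRNAs (si-NT) or with siRNAs against FOSL1 (si-FOSL1), 3 samples in each group and 12 in all.

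The limit carries no scaling between libraries, and the libraries differed in size. The counts in all peaks were 8.73 to 13.8 times the IgG total in the A375 FRA1 samples and 1.86 to 2.85 times in the 1205Lu FRA1 samples, so that 4 times IgG lies below the ratio of totals in A375 and above it in 1205Lu. Of the peaks under 2000 bp, 27.8% were under the A375 limit and 87.1% were under the 1205Lu limit. With every library scaled to the same total in peaks, 51298 peaks would meet the rule. Counts of 1205Lu FRA1 replicates 2 and 3 did not differ beyond sampling noise (8327 peaks, chi-square divided by its degrees of freedom 1.01), and their average was counted as 1 sample in each mean ± SD. The same quotient was 1.6 and 1.49 for the other 1205Lu pairs and 1.27, 1.06 and 1.1 for the A375 pairs. No label says that samples came from separate cultures, so the spread between them may be technical. In the RNA-seq, FOSL1 lay between 414 and 430 CPM in the si-NT samples and between 25.9 and 26.3 CPM with si-FOSL1 in A375, and between 472 and 488 CPM against 63.4 to 69.1 CPM in 1205Lu. The melanoma markers differed between the lines in the si-NT samples. SOX10 lay between 44.1 and 45.0 CPM in A375 and between 893 and 920 CPM in 1205Lu, S100B between 0.842 and 1.12 against 414 to 431 CPM, and MITF between 50.7 and 55.4 against 3.25 to 3.70 CPM. S100A1 lay between 1.05 and 1.33 CPM in A375 and between 179 and 190 CPM in 1205Lu. Of the dedifferentiation markers, AXL was at 487 CPM or more in both lines. EGFR lay between 213 and 224 CPM in A375 and between 67.1 and 71.0 CPM in 1205Lu. NGFR was low in both, at 6.57 to 9.17 and 2.64 to 3.45 CPM. The pigment cell markers MLANA, TYR, DCT and PMEL were at 0.970 CPM or less, so that these did not mark either line. All 5 markers of other cell types (KRT5, KRT14, EPCAM, PTPRC and PECAM1) were below 1 CPM in every si-NT sample, the highest being PECAM1 at 0.964 CPM.

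FRA1, the product of FOSL1, is a member of the FOS family. It pairs with JUN proteins to form AP-1, and such dimers bind the sequence TGACTCA, which reads TGAGTCA on the other strand. In Cut&Run, an antibody holds a nuclease at the bound protein and the released fragments are sequenced. The IgG sample shows where DNA is cut and recovered without an antibody against a chromatin protein, which happens most readily in open chromatin such as active promoters.

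The sequences below, read from GRCh38 and written in the direction of the plus strand with each FOS/JUN match in capitals, show how unlike the near-background peaks are. The first set holds the 3 introns or intergenic regions with the most FOS/JUN matches within 100 bp of the peak centre.
chr14:48563543-48563743: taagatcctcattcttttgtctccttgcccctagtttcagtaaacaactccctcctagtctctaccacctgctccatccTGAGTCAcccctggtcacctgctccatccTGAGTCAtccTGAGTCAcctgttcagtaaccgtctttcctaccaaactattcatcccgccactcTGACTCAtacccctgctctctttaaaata
chr16:61295387-61295587: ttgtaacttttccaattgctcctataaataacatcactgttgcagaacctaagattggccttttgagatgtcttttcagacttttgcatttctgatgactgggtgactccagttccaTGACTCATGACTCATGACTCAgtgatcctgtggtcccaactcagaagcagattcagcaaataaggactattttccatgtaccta
chr9:32264534-32264734: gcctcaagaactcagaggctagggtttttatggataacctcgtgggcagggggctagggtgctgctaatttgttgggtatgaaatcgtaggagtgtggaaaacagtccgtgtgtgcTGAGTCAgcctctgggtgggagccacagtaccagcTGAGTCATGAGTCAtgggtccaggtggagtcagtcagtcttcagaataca
All 3 were intergenic in GENCODE v44. The first held 4 matches and counts of 16, 6 and 8 in the A375 FRA1 samples against 2 in IgG. The second held 3 matches, with 8, 23 and 20 counts against 4, and the third held 3 matches, with 13, 16 and 15 counts against 4. In 1205Lu, no FRA1 sample passed 5 counts in any of them. Matches were therefore as dense as anywhere among the near-background peaks in regions with few reads.

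The next set holds the 3 introns or intergenic regions with the most IgG reads over both lines and no FOS/JUN match near the centre, and none of their letters is in capitals.
chr16:57300317-57300517: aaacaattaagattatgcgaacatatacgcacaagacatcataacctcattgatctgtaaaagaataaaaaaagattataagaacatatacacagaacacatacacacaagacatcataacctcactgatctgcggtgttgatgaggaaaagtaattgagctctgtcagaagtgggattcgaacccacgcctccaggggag
chr11:59550648-59550848: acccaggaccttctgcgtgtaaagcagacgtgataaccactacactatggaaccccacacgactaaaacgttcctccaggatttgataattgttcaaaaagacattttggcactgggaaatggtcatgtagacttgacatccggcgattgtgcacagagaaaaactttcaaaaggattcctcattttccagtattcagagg
chr12:12734807-12735007: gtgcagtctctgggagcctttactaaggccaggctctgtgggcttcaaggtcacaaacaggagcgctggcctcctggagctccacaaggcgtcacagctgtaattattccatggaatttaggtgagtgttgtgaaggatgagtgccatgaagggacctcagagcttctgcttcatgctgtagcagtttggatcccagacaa
The first is intergenic, the second lies in an intron of ENSG00000287264 and the third in an intron of APOLD1. Their A375 FRA1 counts were 113, 190 and 137, then 87, 133 and 146, and then 40, 68 and 76, against IgG counts of 37, 32 and 16. Their reads were many in all A375 libraries, IgG included.

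For comparison, the 2 introns or intergenic regions with the highest A375 FRA1 mean among peaks past both limits, with a match near the centre, were these.
chr19:38684032-38684232: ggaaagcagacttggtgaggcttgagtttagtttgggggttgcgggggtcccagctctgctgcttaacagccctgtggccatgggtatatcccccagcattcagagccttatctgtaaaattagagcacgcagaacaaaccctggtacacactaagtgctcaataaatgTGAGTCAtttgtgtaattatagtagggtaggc
chr20:51366225-51366425: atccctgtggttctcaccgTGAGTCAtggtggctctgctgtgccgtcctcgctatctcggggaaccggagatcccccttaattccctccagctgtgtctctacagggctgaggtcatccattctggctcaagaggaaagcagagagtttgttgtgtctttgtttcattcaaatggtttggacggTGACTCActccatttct
The first lies in an intron of ACTN4 and the second is intergenic. Their A375 FRA1 counts were 1521, 2257 and 1866, and 1387, 1971 and 1679, against IgG counts of 37 and 32. Their IgG counts are in the range of the set before, and their FRA1 counts are not. The limits and the choice by the highest FRA1 mean fixed this contrast in FRA1 counts.

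The near-background peaks held few reads in every library. The median count was 13, 23 and 18 in the A375 FRA1 samples and 5 in A375 IgG, and it was 5, 4 and 4 in the 1205Lu FRA1 samples and 4 in 1205Lu IgG. The selection fixed these levels, and they are given as a description without a test. Summed over the near-background peaks, A375 FRA1 stood at 3.28 ± 0.81 times IgG (SD, n = 3) and 1205Lu FRA1 at 1.28 ± 0.13 times IgG (SD, n = 2). In the peaks past the limit in A375 alone, 1205Lu FRA1 stood at 1.24 ± 0.095 times IgG (SD, n = 2). The 1205Lu libraries were thus as low in those 34124 peaks as in the near-background peaks, and the classes part by their A375 counts. The near-background peaks took 5.84% to 6.08% of the reads in peaks of the A375 FRA1 samples and 20.5% of those of A375 IgG. In 1205Lu they took 10.1% to 12.7% of the FRA1 reads and 19.9% of the IgG reads.

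**Figure D1:**
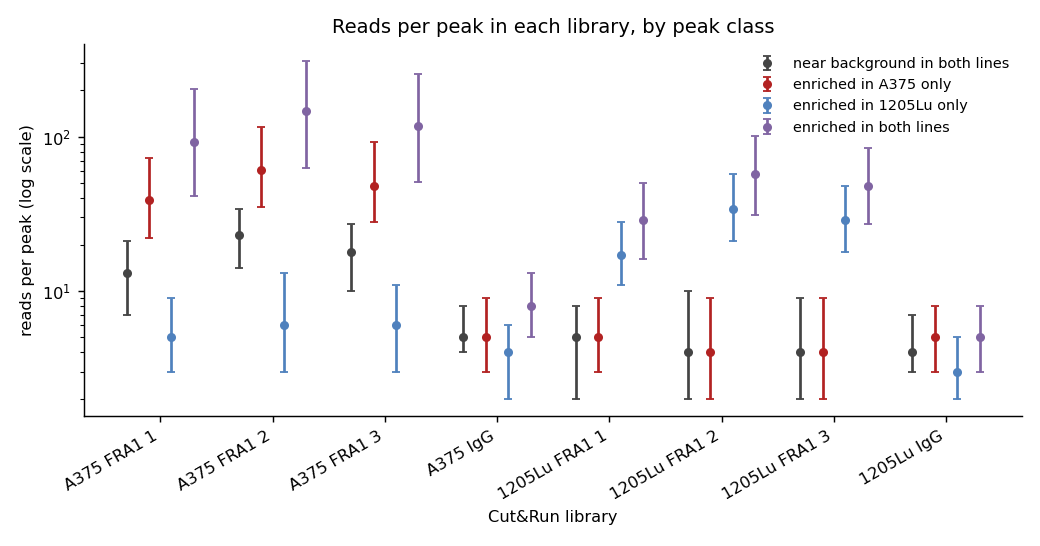
Reads per peak on a log scale in each of the 8 Cut&Run libraries, where points are medians and bars run from the lower to the upper quartile over the peaks of each class under 2000 bp. In the near-background peaks the A375 FRA1 medians were 13, 23 and 18, and the IgG medians were 5 and 4.

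Within the near-background peaks the levels were not uniform. The A375 ratio, the mean FRA1 count over the IgG count plus 1, was 3 to 4 in 6105 peaks (49.5%), 2 to 3 in 3955, 1 to 2 in 1300 and under 1 in 970 peaks. The 1205Lu ratio was under 1 in 7292 peaks (59.1%) and 3 to 4 in 925. Peaks low in both lines were rare, since 994 (8.06%) had both ratios under 2 and 15 had both under 1. The largest group had a ratio of 2 or more in A375 and under 1 in 1205Lu (6724 peaks). The 970 peaks with an A375 ratio under 1 went the other way. Their median counts were 2, 2 and 3 in A375 FRA1 and 9, 18 and 15 in 1205Lu FRA1, against 4 in 1205Lu IgG, and 787 of them (81.1%) had a 1205Lu ratio of 2 or more. On unscaled counts, all but 15 near-background peaks thus had a ratio of 1 or more in at least 1 line.

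**Figure D2:**
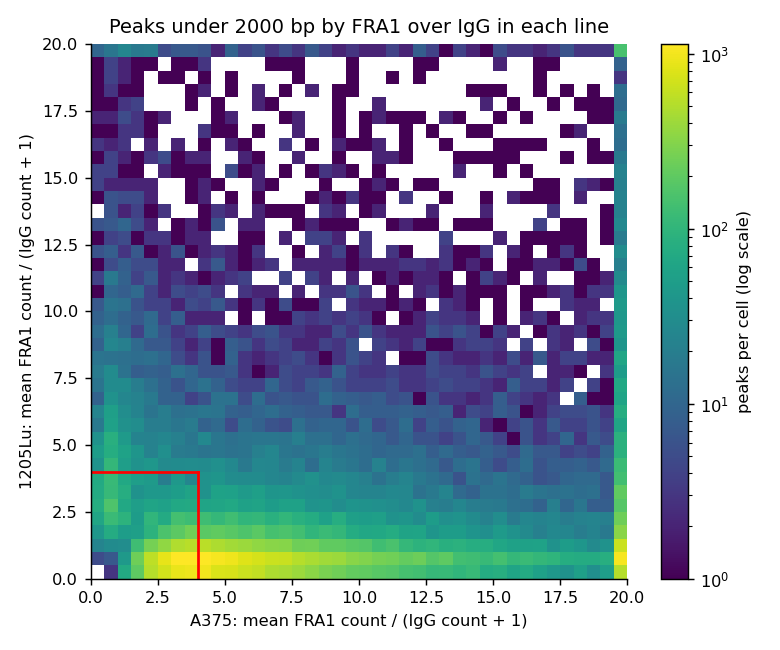
Peaks under 2000 bp by the ratio of the mean FRA1 count to the IgG count plus 1 in A375 (horizontal) and 1205Lu (vertical), in cells of 0.5 by 0.5 coloured by the number of peaks on a log scale, with ratios of 20 or more placed in the last cells. The red lines mark the limit of 4, and the 12330 near-background peaks lie in the corner at the lower left, of which 15 have both ratios under 1.

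The single IgG sample of each line sets the precision of the limit. A count of 5, the median in A375 IgG, has an exact 95% Poisson interval of 1.62 to 11.7. With every IgG count at the lower end of its interval, 879 of the 12330 peaks (7.13%) would still be under both limits. With every IgG count at its upper end, 22247 of the other peaks under 2000 bp (54.2%) would fall under both. The ratio ran through the limit without a gap. The near-background peaks from 3.5 to 4 times in A375 numbered 3108, and 3093 peaks lay from 4 to 4.5 times with 1205Lu under its limit. The peak nearest inside the A375 limit, at the start of PGP (chr16:2214860-2216013), had counts of 82, 137 and 128 against 28 in IgG, a ratio of 3.99. The first peak by position at exactly 4.00, near the starts of PERM1 and PLEKHN1 (chr1:976173-976585), had 8, 19 and 21 counts against 3. At the 1205Lu limit, the peak nearest inside lay in an intron of TNRC6B (chr22:40309911-40311192), with 39, 71 and 57 counts against 13 and a ratio of 3.98. The first peak at exactly 4.00 in 1205Lu lay in an exon of FOXJ3 (chr1:42177519-42177865), with 7, 5 and 12 counts against 1.

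The near-background peaks with the most IgG reads lay at promoters, here peaks with a transcription start within 3 kb. The highest A375 IgG count was 83, in a peak 292 bp from a start of NEURL4 (chr17:7329685-7330142), where the A375 FRA1 samples had 62, 83 and 58 counts. There the FRA1 samples were at or below IgG. A peak over the starts of MBOAT7 and TSEN34 (chr19:54189678-54190623) had 66 IgG counts and the highest A375 FRA1 counts of the class, 201, 339 and 237. A peak over the starts of ZNF524 and FIZ1 (chr19:55599149-55600198) had 59 IgG counts and FRA1 counts of 104, 173 and 118. In 1205Lu, the highest IgG counts were 46 at the start of YARS2 (chr12:32755216-32756978), with FRA1 counts of 37, 30 and 28, and 35 at those of TMEM184A (chr7:1554926-1556097) and SEPTIN7 (chr7:35800610-35801767). Of these, SEPTIN7 had 1 of 3 FRA1 samples above its IgG count (32, 36 and 31), and the other two had none. The next highest A375 FRA1 counts after TSEN34 were at HCFC1 and TMEM187 (chrX:153971260-153973146), with 123, 235 and 225, and at NFYA and OARD1 (chr6:41071936-41073831), with 134, 196 and 169. The highest 1205Lu FRA1 counts lay elsewhere, at ENSG00000227297 (chr20:57600509-57601745) with 62, 138 and 96 counts, and in introns of ZMYND8 (chr20:47258472-47259297) with 51, 82 and 81, and of COL22A1 (chr8:138845903-138846890) with 49, 81 and 51.

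The FOS/JUN sequence was more frequent at the centres of near-background peaks than beside them. A match lay within 100 bp of the centre in 2224 peaks, or 18.0% (95% Wilson interval 17.4 to 18.7), and in 3.19% (2.98 to 3.41) of windows of the same 201 bp placed 2000 bp away on either side. In all peaks the share near the centre was 28.6%. In the other peaks under 2000 bp it was 32.4% (31.9 to 32.8), and the difference was -14.4 percentage points (Newcombe interval -15.2 to -13.5). Among these others it was 32.9% past the A375 limit alone and 37.1% past both limits. Past the 1205Lu limit alone it was 18.0% (16.6 to 19.6), like the near-background peaks. In peaks of 2000 bp or wider it was 9.17%. The sequence played no part in the selection. Against the other peaks under 2000 bp together, the share was lower on each of the 23 chromosomes with at least 50 near-background peaks. The differences were -9.71 to -23.2 percentage points, with every interval below 0. It was also lower in promoters (11.4% against 26.8%), introns (22.4% against 34.6%) and intergenic regions (22.4% against 34.9%). The near-background peaks were narrower, with a median width of 504 bp against 775 bp, and within classes of width the share stayed lower while the size of the difference varied. Under 400 bp it was 7.75% against 10.9% (-3.20 percentage points, -4.74 to -1.67), and from 400 to 600 bp 19.3% against 24.4% (-5.12, -6.50 to -3.72). From 600 to 900 bp it was 27.9% against 43.4% (-15.5, -17.2 to -13.8), and from 900 to 2000 bp 8.66% against 29.4% (-20.7, -22.5 to -18.6). The intervals cover counting error over peaks, which are not replicates.

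The share moved with the A375 ratio, which is a description since this ratio chose the peaks. It was 8.97% (7.33 to 10.9) in near-background peaks with an A375 ratio under 1, 7.38% from 1 to 2, 14.0% from 2 to 3 and 24.4% (23.3 to 25.4) from 3 to 4. Past the limit, with 1205Lu still under its own, it was 29.1% from 4 to 5 and 35.1% from 12 to 20. On either side of the limit it was 25.6% from 3.5 to 4 and 28.9% from 4 to 4.5. Whether this rise was larger than between other neighbouring bins was not tested. By the 1205Lu ratio, the share of near-background peaks with a match did not rise. It was 18.6% under 1, 18.4% from 1 to 2, 15.7% from 2 to 3 and 16.0% from 3 to 4. Outside promoters, the mean A375 FRA1 count of near-background peaks with a match was 1.36, 1.31 and 1.32 times that of peaks without one in the 3 samples, and it was 1.17 times in A375 IgG. In promoters it was 0.94, 0.90 and 0.88 in the FRA1 samples and 0.81 in IgG. Over all near-background peaks it was 1.1, 1.06 and 1.05, and 0.94 in IgG. Peaks with a match thus had a higher mean A375 FRA1 count outside promoters and a lower one within them. Within promoters the median A375 FRA1 counts were 17, 28 and 22 both with and without a match, and the IgG quotient was below each FRA1 quotient. In the 1205Lu FRA1 samples the quotient outside promoters was 0.93, 0.88 and 0.90.

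**Figure D3:**
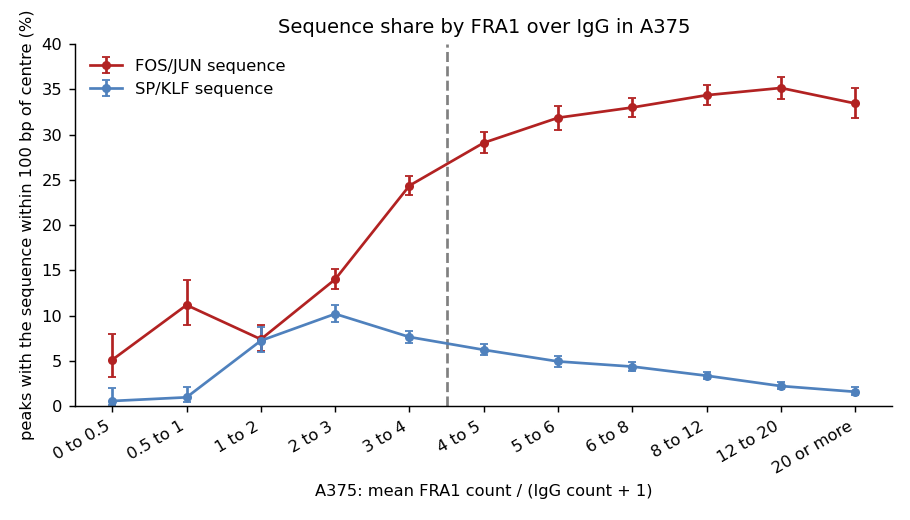
Percent of peaks under 2000 bp, with 1205Lu under its limit, that held the FOS/JUN or the SP/KLF sequence within 100 bp of the centre, by the A375 ratio of mean FRA1 count to IgG count plus 1. Bars are 95% Wilson intervals and the dashed line is the limit of 4, where the FOS/JUN share went from 24.4% to 29.1%.

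The position of the match within the peak differed from that in peaks past the A375 limit. Around the centre, matches in near-background peaks formed 3 maxima. In bins of 50 bp, 6.05% of peaks had a match just after the centre, 2.25% from 100 to 150 bp, and 5.24% from 200 to 250 bp before the centre. The outer maxima lay at the edges of the peaks, whose median width was 504 bp (quartiles 404 and 663). The edge was then examined, a choice made after the profile was seen. A match within 50 bp of the start or the end of the peak, windows of 202 bp in all, was found in 2785 near-background peaks. This is 22.6% (21.9 to 23.3), which is more than in the 201 bp at the centre. The same order held in peaks past the 1205Lu limit alone, with 22.4% at the edges and 18.0% near the centre. At the edges of the other peaks under 2000 bp the share was 17.8% (17.5 to 18.2), and the difference was 4.77 percentage points (3.95 to 5.60), the opposite sign to that at the centre. That sign went with peak width. Among peaks under 400 bp the edge share was 33.1% in near-background peaks and 40.7% in the others, and from 400 to 600 bp it was 25.02% and 29.4%. From 600 to 900 bp it was 11.3% and 11.5%, a difference of -0.26 percentage points with an interval of -1.43 to 0.98, and from 900 to 2000 bp it was 15.6% and 13.2%, a difference of 2.41 (0.15 to 4.95).

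Matches at an edge mostly fell in peaks without a match near the centre (2615 of 2785). They were at the lower-coordinate edge in 1276 peaks, at the higher-coordinate edge in 1241 and at both in 268. By distance from the nearest edge, the fullest bin of 20 bp lay outside the peak in the near-background class, 20 to 40 bp beyond the edge, with 7.50 matches per 100 peaks. In the peaks past the A375 limit alone the fullest bin near the edge lay 20 to 40 bp inside it, with 6.13. It lay there too in the peaks past the 1205Lu limit alone, with 6.68. Most other sequences searched were also more frequent at the edge than in the distant windows of 201 bp. Their edge and distant shares were 7.66% and 1.75% for the SP/KLF sequence, 3.38% and 1.28% for ETS, 0.51% and 0.11% for CRE, 4.61% and 2.94% for TEAD and 4.34% and 3.59% for RUNX, against 22.6% and 3.19% for FOS/JUN. A reordering of the FOS/JUN letters stood at 11.3% and 5.07%. Counting a match near the centre or at an edge, 39.2% of near-background peaks had one. Counting the whole peak and 50 bp beyond it, 45.3% (44.4 to 46.2) did, and 67.5% (67.0 to 67.9) of the other peaks under 2000 bp, which are wider. Peaks with a match at an edge and none near the centre had medians of 10, 18 and 13 A375 FRA1 counts and a width of 433 bp, and those with a match near the centre had 16, 26 and 20 counts and 574 bp. What sets the distance between peak and match was not tested.

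**Figure D4:**
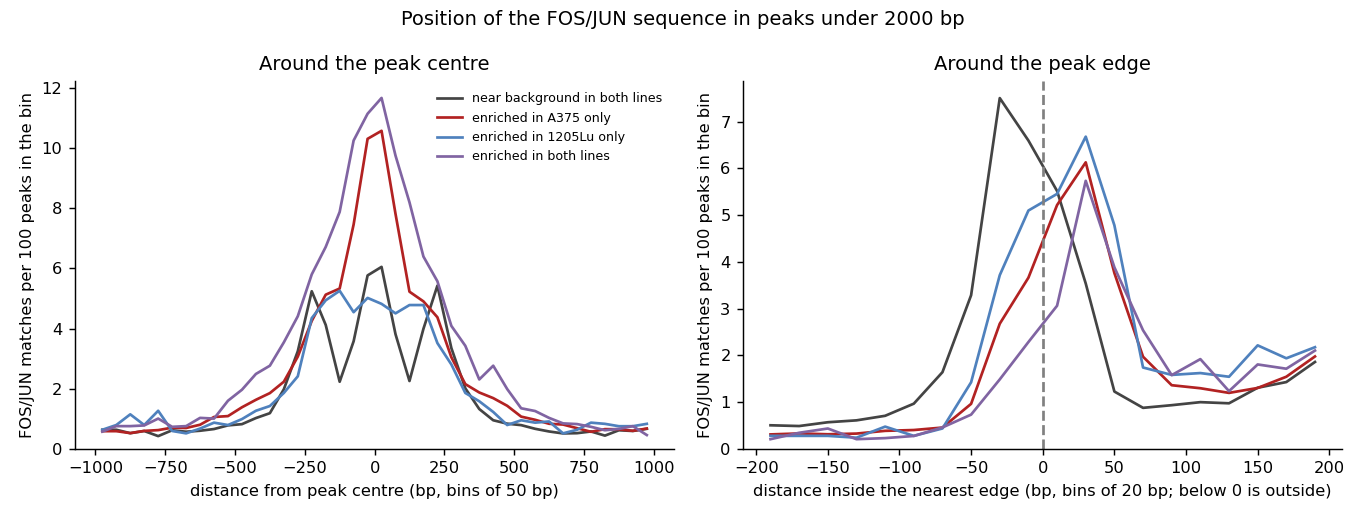
Position of the FOS/JUN sequence for the 4 classes of peaks under 2000 bp. On the left is the percent of peaks with a match, each peak counted once per bin of 50 bp, by distance from the peak centre. On the right are matches per 100 peaks by distance inside the nearest peak edge in bins of 20 bp, below 0 being outside. The near-background peaks show 3 maxima on the left, and on the right their maximum of 7.50 lies 20 to 40 bp outside the edge.

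These are the edges of the 2 intergenic near-background peaks with the highest A375 FRA1 mean among those with a match at an edge and none near the centre, chosen after the profile was seen, with the match in capitals and the edge at the middle base.
chr16:57301191-57301291: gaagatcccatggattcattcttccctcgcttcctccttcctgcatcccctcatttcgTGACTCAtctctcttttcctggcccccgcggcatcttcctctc
chr5:34585658-34585758: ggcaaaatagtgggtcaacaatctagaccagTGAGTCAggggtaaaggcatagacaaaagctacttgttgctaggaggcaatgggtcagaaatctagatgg
The first is the end of the peak whose centre was shown above without a match. The second is the start of chr5:34585708-34586515, with A375 FRA1 counts of 36, 83 and 55 against 14 in IgG. In both, the middle of the match lay outside the peak, by 11 and 16 bp.

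Promoters were more common among the near-background peaks. A transcription start lay within 3 kb of 4918 peaks, or 39.9% (39.0 to 40.8), against 29.6% (29.2 to 30.1) of the other peaks under 2000 bp, a difference of 10.3 percentage points (9.29 to 11.2). A further 34.9% were intronic, 23.3% intergenic and 1.96% exonic. The window of 201 bp at the centre held 10 or more CG pairs in 18.2% of near-background peaks and in 7.39% of the others, a difference of 10.8 percentage points (10.1 to 11.5). Near-background peaks lay less often within 5 kb of a peak that was not one of them (25.2% against 29.9% of the others, a difference of -4.70 percentage points, -5.58 to -3.81). Their share of all peaks ran from 17.2% on chromosome 21 to 28.5% on chromosome 19 among chromosomes with at least 50 of them.

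The promoter peaks carried other sequences. GGGGCGG, the GC box bound by SP and KLF factors, lay near the centre of 7.88% (7.41 to 8.36) of near-background peaks and 3.73% of the others, a difference of 4.14 percentage points (3.64 to 4.66), and in 4.71% of all peaks. In near-background promoter peaks its share was 17.8%, and outside promoters it was 1.27% against 0.97% in the distant windows. CCGGAAA or CCGGAAG, bound by ETS factors, was at 7.36% in promoter peaks and 1.23% elsewhere, and AGGGGGC, part of the CTCF site, at 8.52% and 2.00%. Outside promoters the distant windows had 0.98% and 2.03%, so that AGGGGGC had no excess at the centre there. Differences from the other peaks were 1.18 percentage points (0.82 to 1.55) for ETS and 1.55 (1.16 to 1.97) for CTCF. These 2 differences were not split by promoter, and promoters were more common in the near-background peaks. GGAATGT, bound by TEAD factors, was lower than in the other peaks (4.19% against 6.11%, -1.92 percentage points, -2.34 to -1.49), and so was TGTGGTT, bound by RUNX factors (4.52% against 5.29%, -0.77, -1.19 to -0.34). For TGACGTCA (CRE), CCAATCA (NFY), TCACGTG or TCACATG (E-box) and ACAATGG (SOX) the interval of the difference held 0, and GCATGCGC (NRF1) differed by 0.22 percentage points (0.083 to 0.38). ACTGACT or AGTGACT, a reordering of the FOS/JUN letters, was in 8.25% near the centre and 5.07% of distant windows, and in 310 of the 1017 peaks every such match overlapped a FOS/JUN match. All letters were searched on both strands. Among all 8192 words of 7 bases, each counted with its reverse complement, TGACTCA had the largest excess over the distant windows in near-background peaks (14.9 percentage points). Of the first 25 words, 7 shared 5 or more bases in a row with it and 17 held a CG.

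The composition changed along the class. Near-background peaks with an A375 ratio under 1 had a median G+C of 42.8% and a mean of 2.07 CG pairs in the window, 23.3% were promoters, and 0.82% held GGGGCGG. Those with a ratio of 2 to 3 had 47.3% G+C and 6.36 CG pairs, 45.1% were promoters, and 10.2% held GGGGCGG. From 1 to 2 the promoter share was 39.5%, and from 3 to 4 it was 39.2%. The peaks with the fewest A375 FRA1 reads over IgG were therefore not the most promoter-like. Of those with an A375 ratio under 1, 81.1% had a 1205Lu ratio of 2 or more. Among the 994 peaks with both ratios under 2, 41.0% were promoters.

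The region at chr16:57300317-57300517 holds the 11 letters of a B box, the inner promoter element of tRNA genes. This was searched after that sequence was seen. It was present in 24 near-background peaks, or 0.19% (0.13 to 0.29), in 37 of the other peaks under 2000 bp, or 0.090% (0.065 to 0.12), and in 65 of all peaks (0.12%), with a difference between the first 2 of 0.10 percentage points (0.032 to 0.20). The 24 peaks had a median A375 IgG count of 17.5, against 5 over the class, and a median width of 936 bp, against 504.

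Between the lines, the FRA1 counts of the near-background peaks were compared with edgeR on the 6 FRA1 samples, without a test of the class, since the same counts chose it. After the filter on low counts, 7537 of the 12330 peaks were tested and 3928 were called at an adjusted p under 0.05, 3421 higher in 1205Lu and 507 higher in A375. Over all 45588 peaks tested, 62.5% were called, 28.0% higher in 1205Lu and 34.5% higher in A375. The direction rested on the scaling. With library sizes set equal, 8065 of 8705 tested near-background peaks were called, 774 higher in 1205Lu and 7291 higher in A375. In the group with an A375 ratio under 1, 879 of the 881 peaks tested were higher in 1205Lu in the scaled comparison. The comparison took 1205Lu FRA1 replicates 2 and 3 as separate samples. With the pair summed as 1 sample, 4314 of 11424 tested near-background peaks (37.8%) were called, 3695 higher in 1205Lu and 619 higher in A375, against 52.1% of the 7537. Nothing is read from these counts, as the rule used them.

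Of 18 identifiers of FOS, JUN, ATF, BATF, JDP and MAF genes, 4 (22.2%) had a near-background peak within 3 kb of a start, against 20.7% of all protein-coding genes. They were FOS, JUN, JUND and MAFF, with 1 near-background peak and another peak each, and FOSL1 had no near-background peak. Among genes outside the family, AXL, FSCN1 and MITF had none. CDK6, which drives entry into the cell cycle, had 1, at 2944 bp from a start (chr7:92621221-92621878). This peak had 25, 35 and 24 A375 FRA1 counts against 7 in IgG. CDK6 also had 2 other peaks within 3 kb of a start, past the A375 limit alone. The JUN peak (chr1:58785359-58785857) had 16, 24 and 22 counts against 7, and the FOS peak (chr14:75277260-75277691) 13, 6 and 10 against 4. The JUND peak (chr19:18277728-18278090) had 19, 23 and 23 against 5. The MAFF peak (chr22:38203746-38204167), with 13, 21 and 9 against 4, was the one of these 5 with a FOS/JUN match near its centre. With si-FOSL1, none of the 4 family genes passed a log2 fold change of 1. JUN fell in both lines, by 0.48 on the log2 scale in A375 (SE 0.045, adjusted p = 3.47e-09) and by 0.41 in 1205Lu (SE 0.028, adjusted p = 2.43e-10). JUND, another JUN protein, rose in both. It went from 89.4, 89.0 and 89.0 CPM to 111, 107 and 109 CPM in A375 (log2 fold change 0.29, SE 0.033, adjusted p = 5.50e-08), and from 23.3, 23.7 and 21.4 to 36.9, 41.1 and 35.6 CPM in 1205Lu (log2 fold change 0.73, SE 0.066, adjusted p = 1.65e-08). FOS rose in 1205Lu, from 12.7, 14.2 and 10.6 to 21.3, 18.6 and 19.3 CPM (log2 fold change 0.66, SE 0.099, adjusted p = 1.61e-05), and its A375 groups overlapped (log2 fold change 0.16, adjusted p = 0.604). MAFF, a small MAF protein, fell in A375 from 15.1, 14.1 and 15.8 CPM to 8.37, 8.72 and 9.62 and rose in 1205Lu from 12.2, 14.3 and 12.7 CPM to 20.9, 21.3 and 20.6. The groups did not overlap in either line, and the difference between the lines was 1.45 on the log2 scale (SE 0.13, adjusted p = 1.42e-09).

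RNA-seq asked which genes changed when FOSL1 was silenced, and it was independent of the selection. Of 19893 protein-coding genes matched to the annotation, 2573 had near-background peaks as their only peaks within 3 kb of a start, 1551 had near-background and other peaks, 5575 had other peaks and 10194 had none. In A375, 2302 of the 2573 genes were tested and 79 passed both the adjusted p of 0.05 and a log2 fold change of 1 in size, or 3.43% (2.76 to 4.26), 31 higher and 48 lower with si-FOSL1. Over all protein-coding genes tested, 5.26% were called, 2.76% higher and 2.49% lower. The share was 4.95% (4.36 to 5.60) among genes with other peaks and 6.51% (5.87 to 7.23) among genes with none. In 1205Lu, 56 of 2277 tested genes were called, or 2.46% (1.90 to 3.18), 9 higher and 47 lower, and over all genes 2.97% were called, 1.1% higher and 1.87% lower. The share was 2.82% among genes with other peaks and 3.495% with none. For genes with near-background peaks alone, the interval of the share thus lay below the background in A375 and held it in 1205Lu. The A375 result rests on the fold limit. At an adjusted p under 0.05 alone, 59.8% (57.8 to 61.8) of these genes were called in A375 against 57.7% of all protein-coding genes (29.9% higher and 27.8% lower), and 50.5% (48.4 to 52.5) in 1205Lu against 47.0% (24.0% higher and 23.0% lower). Both shares were then above the background, narrowly so in A375. They were not above those of genes with other peaks alone, 61.2% (59.8 to 62.6) in A375 and 50.8% (49.3 to 52.2) in 1205Lu. With near-background and other peaks the share was 65.8% and 58.3%, and with no peak it was 51.2% and 39.3%. In bulk samples, fewer cells with an RNA and less of it per cell cannot be told apart. With si-NT, the level of genes with near-background peaks alone was like that of genes with other peaks. The median was 27.5 ± 0.15 CPM in A375 (SD, n = 3) against 27.5 ± 0.087, and 24.8 ± 0.11 CPM in 1205Lu (SD, n = 3) against 26.3 ± 0.067, and genes without a peak had 12.8 ± 0.073 and 10.8 ± 0.075 CPM (SD, n = 3). Their median log2 fold change was 0.014 in A375 and -0.00050 in 1205Lu, against 0.014 and -0.00096 over all genes.

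Of 2213 such genes tested in both lines, 68 were called in A375 and 50 in 1205Lu, and 17 were called in both, which is 25% of the first list and 34% of the second. Over the 12638 protein-coding genes tested in both lines, 532 and 326 were called and 94 were called in both, which is 17.7% and 28.8%, and nothing is read from the overlap of the near-background genes. For 14 of the 17 the direction was the same, and CCDC141 and ZNF385D were among those that rose in A375 and fell in 1205Lu. CCDC141, a coiled-coil protein, had log2 fold changes of 2.86 in A375 and -1.10 in 1205Lu (adjusted p = 1.32e-11 and 0.0387). Beside those described next, ARPC5, LPGAT1, LRRC45, MPC1, PSMC3IP, TCF19 and TWF1 fell in both lines and VASN rose in both, genes given after their values were seen. ARPC5, a subunit of the ARP2/3 complex that branches actin filaments, fell by 1.1 on the log2 scale in A375 and by 1.39 in 1205Lu, and TWF1, which binds actin monomers, fell by 1.75 and 1.47. CLTA, clathrin light chain A, fell in A375 from 78.2, 83.0 and 84.1 CPM to 19.7, 19.2 and 17.4 CPM (log2 fold change -2.12, SE 0.054, adjusted p = 1.12e-19). In 1205Lu it fell from 119, 119 and 123 CPM to 34.98, 35.1 and 33.2 CPM (log2 fold change -1.81, SE 0.041, adjusted p = 1.39e-17). The groups were far apart in both lines. Its promoter peak (chr9:36190208-36191098) had 32, 47 and 53 A375 FRA1 counts against 14 in IgG and 9, 14 and 17 1205Lu FRA1 counts against 16, with no FOS/JUN match near the centre. CARM1, an arginine methyltransferase, fell in A375 from 145, 142 and 142 CPM to 39.6, 35.4 and 36.2 CPM (log2 fold change -1.94, SE 0.041, adjusted p = 2.37e-21). It also fell in 1205Lu, from 70.3, 67.3 and 74.8 CPM to 32.9, 31.2 and 31.6 CPM (log2 fold change -1.15, SE 0.050, adjusted p = 3.15e-13). Its peak (chr19:10870980-10871347) had 18, 43 and 27 counts against 15 in A375 IgG, and it held 25 CG pairs in its central window.

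Other genes also fell in both lines. TXNDC12, a thioredoxin domain protein of the endoplasmic reticulum, fell from 78.9, 74.3 and 78.2 to 26.5, 22.8 and 24.9 CPM in A375 (log2 fold change -1.64, SE 0.054, adjusted p = 1.07e-17). In 1205Lu it fell from 38.1, 36.4 and 37.1 to 12.9, 12.1 and 9.04 CPM (log2 fold change -1.71, SE 0.089, adjusted p = 4.46e-12). TCF7L1, a transcription factor of the WNT pathway, fell by 1.93 on the log2 scale in A375 and by 1.13 in 1205Lu, and its peak (chr2:85300800-85301247) held 1 FOS/JUN match. SGPL1, which cleaves sphingosine 1-phosphate, fell by 1.70 and 1.52. CDKN2C, an inhibitor of CDK4 and CDK6, fell in 1205Lu from 21.7, 21.1 and 24.8 CPM to 6.78, 7.35 and 8.48 CPM (log2 fold change -1.58, SE 0.10, adjusted p = 8.72e-11). In A375 its log2 fold change was -0.97 (SE 0.062, adjusted p = 3.76e-12), inside the fold limit. BTG2, which restrains proliferation, rose in both lines, from 19.7, 22.6 and 20.3 to 44.2, 43.3 and 44.8 CPM in A375 and from 10.9, 12.7 and 14.9 to 28.6, 28.8 and 30.6 CPM in 1205Lu. Its log2 fold changes were 1.08 (SE 0.060, adjusted p = 2.55e-13) and 1.2 (SE 0.090, adjusted p = 1.11e-09).

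**Figure D5:**
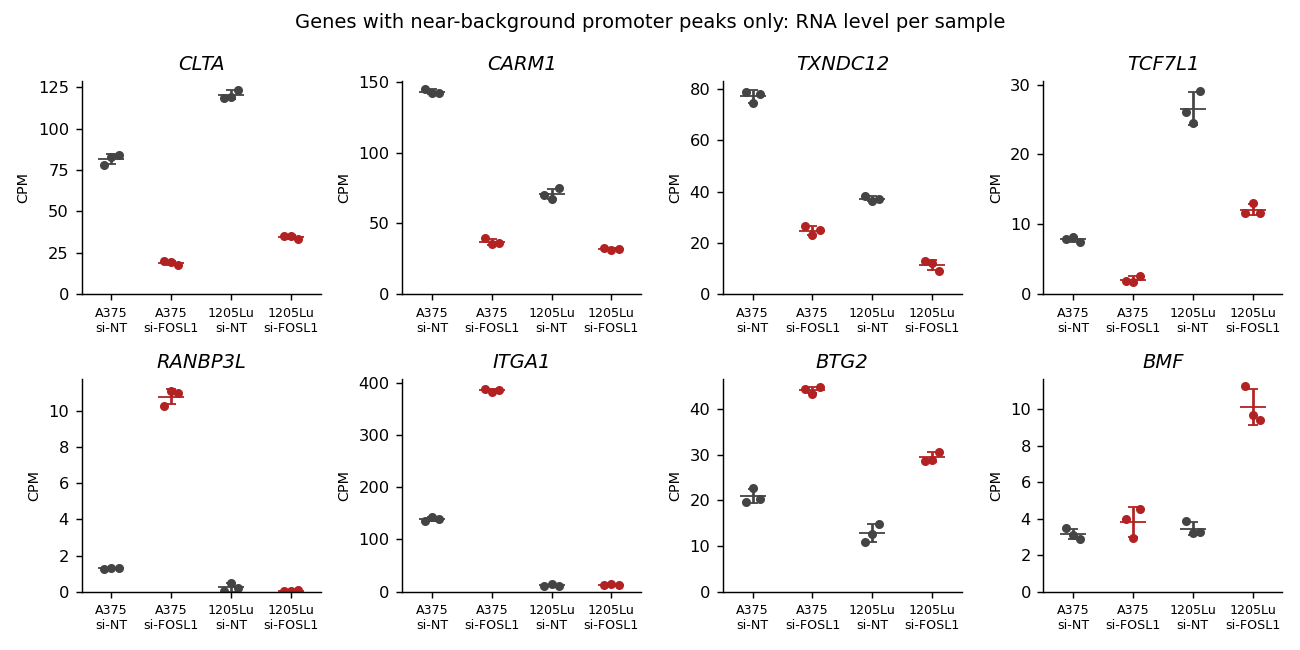
RNA level in CPM per sample for 8 genes with near-background promoter peaks alone, where points are the 3 samples of each group and the bar with whiskers is the mean ± SD. CLTA, CARM1, TXNDC12 and TCF7L1 lay lower with si-FOSL1 in both lines and BTG2 higher, whereas RANBP3L, ITGA1 and BMF were called in 1 line.

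Some genes were called in 1 line, and the difference between the lines was tested with the interaction of line and treatment. RANBP3L, a RAN-binding protein, rose in A375 from 1.24, 1.33 and 1.31 CPM to 10.3, 11.1 and 10.98 CPM (log2 fold change 3.06, SE 0.15, adjusted p = 3.59e-14), and in 1205Lu it was at or below 0.48 CPM in every sample and not tested. Its peak (chr5:36301179-36301695) held a FOS/JUN match. ITGA1, the alpha 1 integrin that binds collagen, rose in A375 from 135, 143 and 139 to 388, 382 and 386 CPM (log2 fold change 1.47, SE 0.025, adjusted p = 5.48e-23). In 1205Lu its log2 fold change was 0.15 (SE 0.098, adjusted p = 0.236).

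RIPOR2 also rose in A375 (log2 fold change 1.75), and it was under 0.45 CPM in every 1205Lu sample. In 1205Lu, BMF, a BH3-only protein that promotes apoptosis, rose from 3.86, 3.22 and 3.29 to 11.2, 9.66 and 9.41 CPM (log2 fold change 1.54, SE 0.14, adjusted p = 2.99e-08). Its A375 groups overlapped (log2 fold change 0.28, adjusted p = 0.235). ELMO1, which activates RAC with DOCK proteins, rose from 4.68, 3.53 and 3.98 to 9.51, 8.96 and 7.69 CPM in 1205Lu, while its A375 groups overlapped (log2 fold change -0.062, adjusted p = 0.577). DMRTA1, a DMRT transcription factor, rose in 1205Lu from 28.9, 28.7 and 27.4 to 71.7, 64.0 and 66.3 CPM (log2 fold change 1.25), with 0.78 in A375.

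The gene lists showed where near-background promoter peaks were placed. Over all protein-coding genes, 12.9% had near-background peaks alone and 20.7% had at least 1. Of 39 proteasome subunit genes, 12 had them alone and 16 (41.0%) had at least 1. Of 87 genes listed by symbol as cytosolic ribosomal proteins, 18 had them alone and 29 (33.3%) had at least 1, and of 505 zinc finger genes these numbers were 104 and 126. Of 384 olfactory receptor genes, which are silent in most tissues, 3 had a near-background peak (OR7A5, OR2T12 and OR6C75), and the 3 were below 0.47 CPM in every sample. Of 18 melanocyte lineage genes 4 had one (RAB27A, PMEL, TYRP1 and TRPM1), and of 16 genes of dedifferentiated melanoma 4 had one (TEAD1, CCN1, TGFBI and CDH2).

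With si-FOSL1, few of the listed genes with a near-background peak passed the fold limit. Over all protein-coding genes, an adjusted p under 0.05 alone called 29.9% higher and 27.8% lower in A375 and 24.0% higher and 23.0% lower in 1205Lu, beside which the counts that follow are set. Of the 29 ribosomal protein genes, 26 were higher and 1 lower in A375 at an adjusted p under 0.05, and 2 were higher and 20 lower in 1205Lu, with none past the fold limit and median log2 fold changes of 0.23 and -0.15. The single lower gene in A375 was RPL7L1, and the higher genes in 1205Lu were RPL6 and RPS9. The list was made by symbol, so that it also holds ribosomal-protein-like genes such as RPL7L1, RPL39L and RPS27L. RPS2 went from 1707, 1698 and 1688 to 2029, 2035 and 1998 CPM in A375 and from 1206, 1198 and 1196 to 1076, 1078 and 1076 CPM in 1205Lu. Of the 16 proteasome genes, 11 were higher and 2 lower (PSMB8 and PSMD3) in A375, and 5 were higher (PSMA3, PSMB8, PSMB9, PSMD1 and PSMD12) and 5 lower (PSMB4, PSMB10, PSMC2, PSMD8 and PSMD13) in 1205Lu, none past the fold limit. PSMB4, a subunit of the catalytic core, had log2 fold changes of 0.20 in A375 and -0.47 in 1205Lu. Of 125 zinc finger genes tested in A375, 3 rose past the fold limit (ZNF385D, ZNF425 and ZNF436), and of 110 in 1205Lu 1 rose (ZNF804A) and 3 fell (ZNF257, ZNF385D and ZNF793), beside 2.76% of all genes higher in A375 and 1.1% higher and 1.87% lower in 1205Lu. By adjusted p alone, 24 zinc finger genes were higher and 33 lower in A375, and 34 were higher and 8 lower in 1205Lu. PMEL, a protein of pigment granules, rose in A375 from 0.458, 0.442 and 0.589 to 1.21, 1.39 and 0.819 CPM (log2 fold change 1.19, adjusted p = 0.0144), the one call past the fold limit among the listed melanocyte and dedifferentiation genes. PMEL also had a promoter peak past both limits, with 400, 551 and 471 A375 FRA1 counts against 32. CCN1, a matrix protein induced through YAP and TEAD, had a near-background peak over its start with 33, 39 and 37 A375 FRA1 counts against 11 and 15, 25 and 18 1205Lu FRA1 counts against 4. Other CCN1 peaks within 3 kb of a start passed the A375 limit. The highest of these had 171, 271 and 272 A375 FRA1 counts against 25, and 9, 16 and 17 1205Lu FRA1 counts against 6. The RNA of CCN1 went from 444, 458 and 436 to 234, 222 and 242 CPM in A375 and from 57.8, 53.2 and 54.7 to 101, 94.4 and 96.6 CPM in 1205Lu. The log2 fold changes were -0.94 and 0.81, and the difference between the lines was 1.76 (SE 0.048, adjusted p = 3.12e-19). TEAD1, a TEAD factor, had 234, 236 and 242 CPM in the si-NT samples and 218, 226 and 217 CPM in the si-FOSL1 samples of A375, and its near-background peak (chr11:12827767-12828524) had 3, 7 and 3 A375 FRA1 counts against 4 and 13, 19 and 25 1205Lu FRA1 counts against 5.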

How the data were processed

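Cut&Run and RNA-seq were measured in A375 and 1205Lu cells. The authors aligned Cut&Run reads to GRCh38 with Bowtie2 2.4.1, called peaks with MACS2 2.1.1.20160309 and deposited raw counts per consensus peak, and the sources used here do not say if each sample or a pool of samples was called. For RNA-seq the authors used cutadapt 1.8.1, STAR 2.7.7a and RSEM 1.3.0 and deposited expected counts that are whole numbers. Tools and versions are those of the submitters' processing notes. Near-background peaks were taken by the limit of 4 times IgG plus 1 on unscaled counts. Transcription starts, exons and introns came from GENCODE v44, in which 99.5% of the protein-coding genes had an identifier, and sequences came from the same build. Sequences of factors were searched as letters on both strands within 100 bp of the centre and 2000 bp away, and shares carry 95% Wilson and Newcombe intervals, which cover counting error only.

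Comparisons used edgeR 4.0.16 in R 4.3.3 (filterByExpr, TMM, glmQLFit and glmQLFTest, Benjamini-Hochberg adjustment), fitted over all peaks or genes, each cell line on its own for RNA-seq and all 12 samples for the interaction. Values per sample are CPM on TMM library sizes. Totals in peaks were 3354095 to 5316527 counts in A375 FRA1, 583750 to 897407 in 1205Lu FRA1, and 383994 and 314569 in IgG. RNA-seq totals were 20573412 to 32518903 counts. On simulated counts with changes of 2 on the log2 scale, 81.6% of changed peaks and 99% (A375) and 97.4% (1205Lu) of changed genes were recovered. Alternatives used DESeq2 1.42.0, other limits, windows, filters and scalings, and samples left out. The class, the gene lists and the rule for names were chosen with earlier results of these data known. Peaks were named for the highest IgG or FRA1 counts, for lying next to a limit, or for lying at listed genes, and genes for the 4 largest fold changes in each direction per line if called, averaging 100 counts or more, with groups that did not overlap, plus up to 4 of each list by mean count. Some genes that met the rule are not reported here.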

Additional observations from a re-analysis of the deposited data

Results flagged for a closer look

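For 8 of the 37 named genes with an interaction test, the effect of si-FOSL1 differed between the lines at an adjusted p under 0.05 and by over 1 on the log2 scale. The differences below are the log2 fold change in 1205Lu minus that in A375, from edgeR over all 12 samples. For genes with near-background promoter peaks alone they were -4.82 for RANBP3L (adjusted p = 1.86e-05), -3.94 for CCDC141 (adjusted p = 2.79e-08), -2.18 for RIPOR2 (adjusted p = 0.00922) and -1.30 for ITGA1 (adjusted p = 3.82e-13). They were 1.27 for BMF (adjusted p = 0.000132) and 1.16 for ELMO1 (adjusted p = 3.56e-06). For genes with near-background and other promoter peaks they were 1.45 for MAFF and 1.76 for CCN1. RANBP3L and RIPOR2 were near 0 CPM in 1205Lu, where their own change was not tested. CCDC141 was at 1.72 CPM or less in every 1205Lu sample. Most of these genes were named for a large change in 1 line, which favours a difference between the lines.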

How the results depend on the processing

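The selection rests on its limit. With 2, 8 or the scaled limit, 994, 32621 and 51298 peaks were near background, and 5492 with every FRA1 sample under the limit, 46454 under the 1205Lu limit alone, 14861 under the A375 limit alone, and 879 with IgG at its lower Poisson bound (an alternative chosen after seeing the data, as were the edge windows). In that order of the first 6, the FOS/JUN share near the centre was 4.02%, 25.7%, 28.9%, 12.5%, 28.9% and 18.0%, and 4.21% with IgG at its bound. The difference from the other peaks was -25.5, -8.81, -3.54, -18.4, -1.18, -15.3 and -25.3 percentage points, and the promoter share 41.0%, 35.0%, 32.2%, 45.3%, 32.5%, 37.1% and 53.5%. The window gave 11.1% and -7.79 points (50 bp), 33.6% and -30.5 points (whole peak), and 45.3% and -22.2 points (whole peak and 50 bp beyond). The edges gave 22.6% and 4.77 points, the one reversal of the difference in FOS/JUN share. Promoters were 28.9% within 1 kb and 31.6% for protein-coding starts. Leaving out 1 FRA1 sample gave 9653 to 15425 peaks, FOS/JUN shares of 16.5% to 20.1%, differences of -15.4 to -12.7 points and promoter shares of 38.9% to 40.6%. Between the lines, 3928 calls became 8065 with library sizes set equal and 455 of 735 tested with at least 10 counts in each sample, and 2701 to 4346 without 1 sample (3335 to 3356 peaks tested without an A375 sample). Most calls were higher in 1205Lu in the main fit and higher in A375 with library sizes set equal. With adjusted p alone, 1376 genes in A375 (59.8%, all genes 57.7%) and 1149 in 1205Lu (50.5%, all genes 47.0%) were called, so that the share below the background in A375 holds with the fold limit and not without it, and without 1 sample 79 to 87 and 47 to 58. Same-numbered samples did not deviate together (r -0.053 to 0.047), and the replicate block gave 3662 peaks and 78 and 54 genes. All 180 refits of the 15 named gene results kept direction and call. The cause of the other changes was not tested. Depth limits single peaks, whose IgG count is about 5.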

Other observations

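Over near-background peaks, counts per bp of the A375 FRA1 samples ranked like those of A375 IgG, with Spearman's rho of 0.66, 0.72 and 0.69 over 12330 peaks, against 0.55, 0.55 and 0.55 in the other peaks under 2000 bp. Between replicates of A375 FRA1, rho was 0.76 to 0.77 in near-background peaks and 0.94 to 0.95 in the others. Across the lines, rho between A375 and 1205Lu FRA1 samples of the same number was -0.081, -0.19 and -0.15 in near-background peaks and 0.087 to 0.11 in the others. The limits on both lines set part of this pattern. These values are descriptions across peaks that share libraries and low counts.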
